A study of Homo sapiens with 4 samples.

Results

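The genes described are the copies of U6 and Y RNA that lie beside a SMAR1 peak in HCT116 cells. They were chosen by their name (Y_RNA, U6, or RNU6 with a number) and by having a ChIP-seq peak centred no more than 5 kb from either edge of the copy in at least 1 of the 2 peak lists. By this rule 77 copies were taken out of 2126 on chromosomes 1 to 22 and X, 43 of the 1324 U6 copies and 34 of the 802 Y RNA copies. HCT116 is a line of human colorectal carcinoma cells. It was used untreated, as HCT116 p53+/+ cells that have the tumor suppressor p53 and as HCT116 p53-/- cells that lack it. Chromatin of each line was precipitated with an antibody to SMAR1, also called BANP, and 1 such library was sequenced per line, so that no value has a replicate and no difference between the lines can be tested. The rabbit IgG libraries were not analysed here. The peak lists held 5709 peaks for HCT116 p53+/+ and 8217 for HCT116 p53-/-, of which 5471 and 8127 were on the chromosomes used. The score of a peak is the one MACS gives, −10 times the log10 of its p-value. It grows with depth, so scores are read within a list only. The lists hold no reads, and the depth behind a single peak is unknown. The paper reports more aligned reads for the HCT116 p53-/- SMAR1 library than for the HCT116 p53+/+ one. Numbers of peaks, and peaks in 1 list alone, therefore cannot be set down to p53 rather than depth.

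U6 is the small nuclear RNA at the catalytic centre of the spliceosome, where its ACAGAGA box pairs with the 5′ splice site. Y RNAs are short RNAs that bind the Ro60 protein and have been tied to RNA quality control and to the start of DNA replication. Both are made by RNA polymerase III from promoters that lie wholly upstream of the transcript, with a TATA box and a proximal element for the SNAPc complex, and often a distal octamer. Their RNAs have been copied into the genome many times by retrotransposition, and most such copies lack this upstream promoter and are pseudogenes.

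U6 copies lay beside a peak no more often than the peaks would fall there by their number alone. In HCT116 p53+/+, 17 of 1324 U6 copies were members (1.28%, 95% Wilson interval 0.803 to 2.05), each with 1 peak. For HCT116 p53-/-, 34 were members (2.57%, 1.84 to 3.57) with 37 peaks, as 3 copies had more than 1. The windows of 5 kb around all U6 copies covered 0.468% of the assembled bases. Peaks spread evenly over each chromosome would have put 25.7 HCT116 p53+/+ and 38.1 HCT116 p53-/- peaks in them. The observed numbers were 0.66 (0.385 to 1.06) and 0.971 (0.684 to 1.34) times these, with exact Poisson intervals. All intervals cover counting error only.

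Y RNA copies gave a like picture. In HCT116 p53+/+, 18 of 802 copies were members (2.24%, 1.42 to 3.52), with 18 peaks where 15.7 were expected from even spreading (ratio 1.15, 0.679 to 1.81). For HCT116 p53-/-, 23 copies were members (2.87%, 1.92 to 4.27), with 24 peaks where 23.3 were expected (ratio 1.03, 0.661 to 1.54). The intervals of all 4 ratios held 1. A single HCT116 p53+/+ peak, on chromosome 5, counted for both families, since RNU6-183P and a Y_RNA copy lie on either side of it.

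For scale, a peak was centred within 5 kb of 6.98% of all annotated genes in HCT116 p53+/+ and of 10.1% in HCT116 p53-/-. That includes peaks inside long genes. Among annotated genes of at most 200 bp other than U6 and Y RNA copies, the shares were 2.72% and 3.6%. Both U6 intervals ended below these figures, by little in HCT116 p53-/- (3.57 against 3.6), and both Y RNA intervals held them. As the members were selected on these peaks, the shares describe the lists and were given no test.

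**Figure D1:**
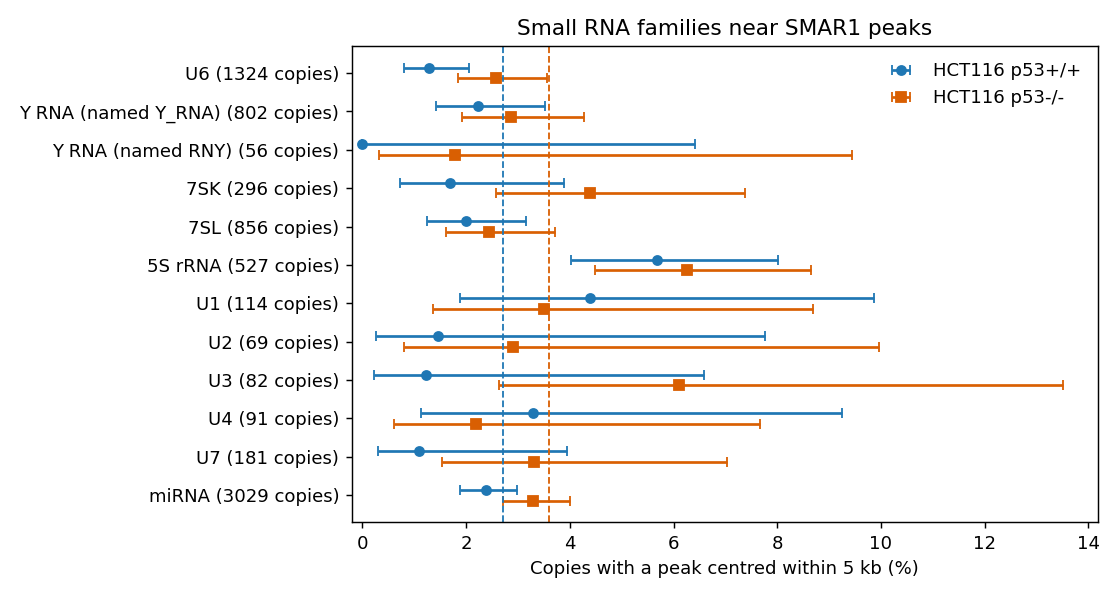
Share of annotated copies with a peak centred within 5 kb (x axis, percent) for families of small RNA genes, with 95% Wilson intervals, for HCT116 p53+/+ (circles) and HCT116 p53-/- (squares). Dashed lines mark all other genes of at most 200 bp (2.72% and 3.6%). U6 (1.28% and 2.57%) and Y_RNA (2.24% and 2.87%) sit to the left of these lines.

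Other families made by many retrotransposed or tandem copies were set beside them. 7SK, a regulator of transcription elongation, had 5 of 296 copies near a peak in HCT116 p53+/+ (1.69%) and 13 in HCT116 p53-/- (4.39%). Those 13 had 12 peaks in all. The functional gene RN7SK stands in the annotation more than once at the same place, beside the same HCT116 p53-/- peak. 7SL, the RNA of the signal recognition particle, had 17 of 856 (1.99%) and 21 (2.45%). The 5S rRNA copies had higher shares, 30 of 527 (5.69%, 4.02 to 8.01) and 33 (6.26%, 4.49 to 8.66). Many of these share peaks, with 19 and 21 peaks in all. Even spreading would have put 9.64 and 14.3 peaks there (ratios 1.97 and 1.47). The intervals of 7SL (1.24 to 3.16 and 1.61 to 3.72) overlapped those of U6.

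The distance profile around all copies, which is not limited to the members, showed no excess next to them. Within 1 kb of a U6 copy there were 2 HCT116 p53+/+ peaks where 5.39 were expected, and 6 HCT116 p53-/- peaks where 7.98 were expected. Within 1 kb of a Y RNA copy there were 2 and 3 peaks, where 3.3 and 4.88 were expected. Between 5 and 10 kb, outside the range that chose the members, the ratios were 1.08 and 0.97 for U6 and 1.11 and 1.01 for Y RNA. Between 50 and 100 kb they were 1.04 and 0.948 for U6 and 0.868 and 1.02 for Y RNA. The interval left out 1 in a single window, 10 to 20 kb from U6 copies in HCT116 p53-/- (56 peaks where 72.8 were expected, ratio 0.77, 0.581 to 0.999).

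**Figure D2:**
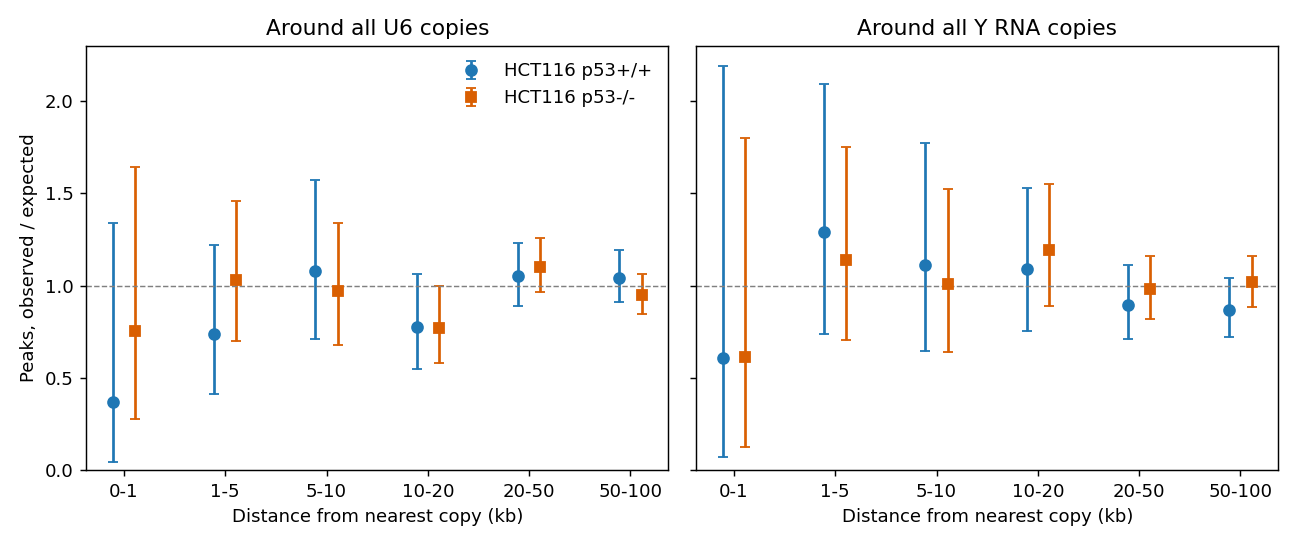
Number of peaks divided by the number expected from even spreading over each chromosome (y axis) by distance from the nearest copy in kb (x axis), around all 1324 U6 copies (left) and all 802 Y RNA copies (right). Bars are 95% exact Poisson intervals, and the dashed line is 1. The points nearest to the copies, at 0.371 and 0.752 for U6 and 0.606 and 0.614 for Y RNA, rest on 2 to 6 peaks each.

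By name, 42 of the 43 U6 members are pseudogenes, as are 1308 of all 1324 U6 copies. The Y RNA members carry a name that does not tell a functional gene from a pseudogene. In HCT116 p53+/+ the U6 members were 17 of 1308 named pseudogenes (1.3%, 0.813 to 2.07), and HCT116 p53-/- had 33 (2.52%, 1.8 to 3.52). None of the 11 copies named U6 without a number was a member. Of the 5 U6 genes whose names mark them as functional, 0 had a peak within 5 kb in HCT116 p53+/+, which allows a share of up to 43.4% by the Wilson interval, and 1 had one in HCT116 p53-/-. That gene is RNU6-1.

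RNU6-1, read from the minus strand of chromosome 15, stands in an intron of a lncRNA gene. An HCT116 p53-/- peak from 68132388 to 68132649 (262 bp, score 175.37) covered the sequence from 5 to 266 bp upstream of its first base and did not reach into the RNA. Its score was at percentile 93.5 of the list. In HCT116 p53+/+ the nearest peak was 65.0 kb away (score 50.18). The peak is printed on the strand of RNU6-1, with the octamer and the TATA box in capitals, because it covers this promoter from end to end.
RNU6-1 peak (chr15:68132388-68132649, minus strand): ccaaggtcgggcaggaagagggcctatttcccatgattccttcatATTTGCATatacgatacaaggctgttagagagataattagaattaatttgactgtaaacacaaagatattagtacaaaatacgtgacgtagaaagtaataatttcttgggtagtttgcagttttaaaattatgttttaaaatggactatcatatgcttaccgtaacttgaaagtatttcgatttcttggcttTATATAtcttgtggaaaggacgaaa

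The octamer (ATTTGCAT) spans 221 to 214 bp and the TATA box (TATATA) 29 to 24 bp upstream of RNU6-1. The longest T(C/G) run in this peak was 6 bp, and it held no p53 consensus. Its central 31 bases occur once in the assembly. The stretch upstream of RNU6-1 is also the promoter most often cloned to drive short hairpin RNAs in expression constructs. A peak list cannot tell reads of such DNA from reads of the chromosome, and their part in this peak was not tested.

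The other functional U6 genes had no peak close by. RNU6-9, on chromosome 19 from 893484 to 893590, came nearest, with an HCT116 p53+/+ peak 9.97 kb upstream (score 75.07). For RNU6-2, also on chromosome 19 (1021521 to 1021627), the nearest peak was 74.0 kb downstream in both lists, with scores of 160.96 and 786.72. RNU6-7 (32671251 to 32671357) and RNU6-8 (32672369 to 32672475) lie beside each other on chromosome 14, and their nearest peaks were 391 and 390 kb away in HCT116 p53+/+ and 197 and 196 kb away in HCT116 p53-/-. RNU6-2 and RNU6-9 are identical to RNU6-1 over its 107 bp, and RNU6-7 and RNU6-8 match 99.1% of it. The promoter peak was thus seen at 1 of 5 genes with nearly the same transcript.

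The functional Y RNA genes stand together on chromosome 7 and are not among the copies named Y_RNA. RNY5 (148638580 to 148638658), RNY4 (148660407 to 148660502), RNY3 and RNY1 (148684228 to 148684340) had no peak within 5 kb in either list. In HCT116 p53-/- the nearest, from 148739678 to 148739717 (score 81.32), was 55.4 kb from RNY1, 58.7 kb from RNY3 and 79.2 kb from RNY4, and still farther from RNY5. In HCT116 p53+/+ the distances ran from 317 kb for RNY1 to 362 kb for RNY5. Of the 56 genes and pseudogenes named RNY, 0 had a peak within 5 kb in HCT116 p53+/+ (upper limit 6.42%) and 1 in HCT116 p53-/- (1.79%).

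No peak was centred inside a copy, and 1 touched a copy. This was the HCT116 p53-/- peak at RNU6-581P, on chromosome 7 from 120312925 to 120313029 in an intron of KCND2, a potassium channel gene. The peak (score 65.06) started within the last bases of RNU6-581P and was centred 22 bp downstream of it. The next nearest to a U6 copy in that list, after RNU6-1, was 158 bp downstream of RNU6-779P on chromosome 11 (59266465 to 59266539, score 75.33). For Y RNA, a peak was centred 25 bp downstream of the Y_RNA copy on chromosome 1 from 184284792 to 184284899 (score 81.61), and another 238 bp downstream of the copy on chromosome 5 from 2184824 to 2184934 (score 97.25). Among these close peaks, those at RNU6-581P, RNU6-779P and the chromosome 1 copy were T(C/G) repeats, printed from the plus strand with the longest run in capitals.
RNU6-581P peak (chr7:120313027-120313076): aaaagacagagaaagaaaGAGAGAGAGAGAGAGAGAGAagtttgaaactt
RNU6-779P peak (chr11:59266664-59266730): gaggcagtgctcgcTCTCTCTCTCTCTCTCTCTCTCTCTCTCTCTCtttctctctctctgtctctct
Y_RNA peak (chr1:184284905-184284944): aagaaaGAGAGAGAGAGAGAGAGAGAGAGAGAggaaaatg

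In HCT116 p53+/+, the U6 copies with the nearest peaks were RNU6-130P, on chromosome 6 from 82920055 to 82920157 in an intron of IBTK (233 bp upstream, score 88.74), and RNU6-921P (250 bp upstream, score 86.14). RNU6-419P in an intron of PAPLN followed at 1125 bp upstream (score 71.3). For Y RNA they were the copies in introns of WDR7 on chromosome 18 (54420457 to 54420557, 942 bp upstream, score 71.95) and, on chromosome 1, of MRPS14 (174991615 to 174991716, 987 bp upstream, score 77.6), then the copy on chromosome 7 from 43136331 to 43136443 (1137 bp downstream, score 88.35). RNU6-921P and the MRPS14 copy also had an overlapping HCT116 p53-/- peak, centred 275 bp upstream of RNU6-921P (score 79.83) and 959 bp upstream of the MRPS14 copy (score 255.22). The HCT116 p53+/+ peak at RNU6-921P is a long mixture of GA and CA repeats, with a run of 90 bp.

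Peaks lay on both sides of the copies. Upstream of a U6 copy were 11 of 17 HCT116 p53+/+ peaks (64.7%, 41.3 to 82.7) and 15 of 37 HCT116 p53-/- peaks (40.5%, 26.3 to 56.5). Upstream of a Y RNA copy were 9 of 18 (50%, 29.0 to 71.0) and 9 of 24 (37.5%, 21.2 to 57.3). All 4 intervals held 50%. Counting only copies with a peak on the promoter side, 11 and 14 U6 copies and 9 and 9 Y RNA copies had one within 5 kb upstream. The median distance was 3074 and 2636 bp for U6 and 3580 and 2775 bp for Y RNA, in HCT116 p53+/+ and HCT116 p53-/-, respectively.

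The limit of 5 kb fell among copies that differ little. In HCT116 p53+/+ the last U6 copies inside were RNU6-183P (4.851 kb, score 57.93) and RNU6-989P (4.92 kb, score 58.78), and the first outside were RNU6-1029P (5.063 kb, score 61.3) and RNU6-943P (5.26 kb, score 66.78). In HCT116 p53-/- they were RNU6-163P (4.878 kb, 57.99) and RNU6-989P (4.921 kb, 81.61) inside, and RNU6-972P (5.015 kb, 58.68) and RNU6-477P (5.21 kb, 65.06) outside. The last Y RNA copies inside were at 4.79 and 4.895 kb in HCT116 p53+/+ and at 4.98 and 4.99 kb in HCT116 p53-/-. The first outside were at 5.152 and 5.77 kb, and at 5.062 and 5.157 kb.

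**Figure D3:**
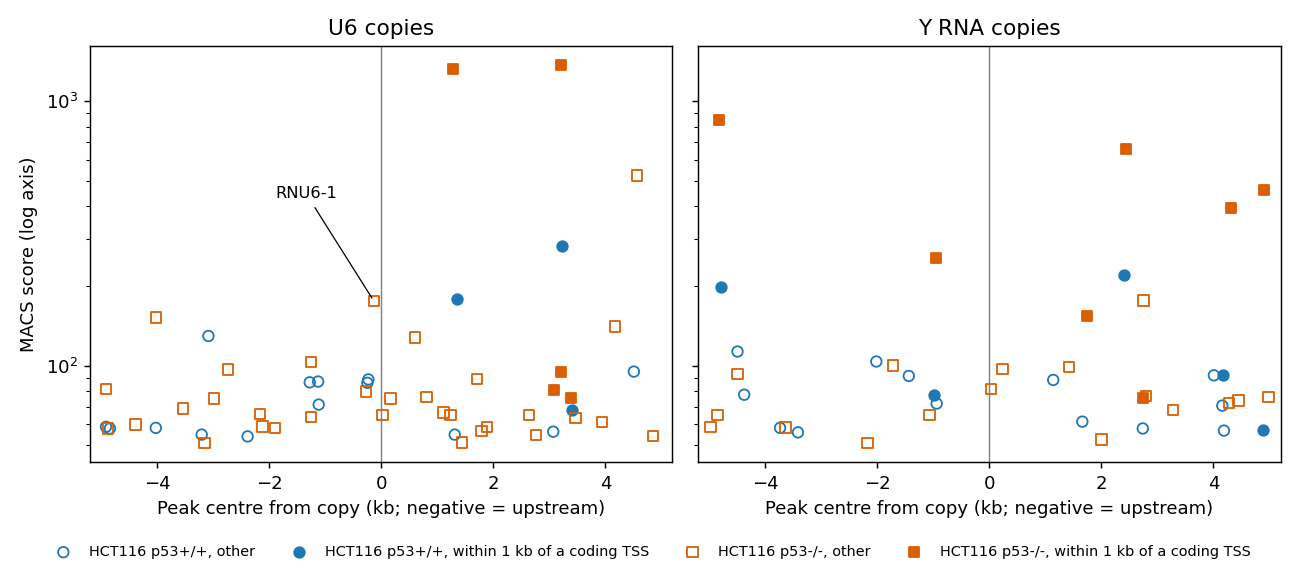
Each peak near a member, by the distance of its centre from the copy in kb along the strand of the copy (x axis, negative upstream) and its MACS score (y axis, log scale), for U6 (left) and Y RNA (right), with circles for HCT116 p53+/+ and squares for HCT116 p53-/-. Filled symbols are peaks within 1 kb of the start of a protein-coding gene. Of the 7 HCT116 p53-/- peaks near Y RNA copies that scored at least 150, 6 are filled, and of the 5 near U6 copies 2 are.

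The highest scores near the copies belonged to peaks at the start of a neighbouring protein-coding gene. RNU6-1043P lies on chromosome 16 from 30712658 to 30712756 in an intron of SRCAP, which encodes a chromatin remodelling ATPase. Its peak, 3.2 kb away, was centred 98 bp from the annotated start of SRCAP in HCT116 p53+/+ (score 282.46, percentile 99.1) and 84 bp from it in HCT116 p53-/- (score 1367.93, percentile 99.5). RNU6-736P lies on chromosome 3 from 139107119 to 139107206 in an intron of COPB2, a coatomer subunit. Its peaks were 22 and 91 bp from the start of COPB2, with scores of 178.03 and 1320.75. In both lists these were the 2 highest scores near a U6 copy. The third in HCT116 p53+/+ was a peak 3088 bp upstream of RNU6-992P in SETD4 (129.44), and in HCT116 p53-/- a peak downstream of RNU6-159P (521.72).

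Among Y RNA copies, the copy between genes on chromosome 5 from 56464935 to 56465036 had peaks at the start of GPBP1, which binds GC-rich promoters, with scores of 198 and 847.35. The copy in an intron of WDR77, a partner of the methyltransferase PRMT5, on chromosome 1 from 111989420 to 111989530, had peaks at the start of that gene with scores of 219.17 and 659.54. The copy on chromosome 2 from 85560018 to 85560119 had peaks at the start of TGOLN2, a protein of the trans-Golgi network, with scores of 57.32 and 460.53. The third highest score in HCT116 p53+/+ was at the copy on chromosome 16 from 228553 to 228655 (113.09).

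In all, 10 of the 77 members had a peak within 1 kb of a protein-coding start, 4 U6 and 6 Y RNA copies. Such peaks made up 3 of 17 and 5 of 37 peaks near U6 copies (17.6%, 6.19 to 41.0, and 13.5%, 5.91 to 28), and 7.38% and 9.04% of all peaks. Near Y RNA copies they made up 5 of 18 (27.8%, 12.5 to 50.9) and 7 of 24 (29.2%, 14.9 to 49.2), and these intervals lay above the shares of the lists. The median score of the peaks near Y RNA copies was 77.64 and 79.25, where the lists had 67.88 and 73.93. For U6 it was 71.3 and 69.06. In HCT116 p53-/- alone, RNU6-307P had a pair of neighbouring peaks beside the start of CACYBP (scores 80.69 and 94.5), and the Y_RNA copy on chromosome 17 from 47494106 to 47494212 had one beside that of PHB1, which encodes prohibitin (153.77).

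Of the copies near a peak of both lists, 8 of 15 stood beside such promoters. Among U6 copies there were 8, making 47.1% of the HCT116 p53+/+ members of that family and 23.5% of those in HCT116 p53-/-. For Y RNA there were 7, making 38.9% and 30.4%. Counted by peak, 47.1% (26.2 to 69.0) and 21.6% (11.4 to 37.2) of the peaks near U6 copies and 33.3% (16.3 to 56.3) and 25% (12 to 44.9) of those near Y RNA copies overlapped a peak of the other list, where the lists as a whole had 20.9% and 13.4%. Peaks at coding starts were shared more often in the lists as well, 75.2% and 36.3% of them, beside 16.5% and 11.1% of the other peaks. Of the other peaks near U6 copies, 5 of 14 (35.7%, 16.3 to 61.2) and 5 of 32 (15.6%, 6.86 to 31.8) were shared. Near Y RNA copies 1 of 13 (7.69%, 1.37 to 33.3) and 1 of 17 (5.88%, 1.05 to 27.0) were. All 4 intervals held the share of the other peaks of the list. In the lists this split covers the 5463 HCT116 p53+/+ and 8124 HCT116 p53-/- peaks whose sequence is fully known. By number, the shared ones among them were 304 at coding starts and 835 elsewhere in HCT116 p53+/+. In HCT116 p53-/- they were 267 and 822. In 14 of these 15 copies the peaks of the cell lines overlapped. In the remaining copy, on chromosome 21 from 24804501 to 24804602, they were different peaks, 4376 bp upstream (score 77.69) and 1417 bp downstream (score 98.83). The promoters were those of SRCAP, COPB2 and GRB2 next to U6 copies and those of WDR77, MRPS14, NFATC3, TGOLN2 and GPBP1 next to Y RNA copies. GRB2 encodes a signalling adaptor, MRPS14 a mitochondrial ribosomal protein and NFATC3 a transcription factor.

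The scores at these promoters ranged from 57.32 (TGOLN2) to 282.46 (SRCAP) in HCT116 p53+/+ and from 75.33 (GRB2, next to RNU6-938P) to 1367.93 (SRCAP) in HCT116 p53-/-. The pair at GRB2 scored near the median of both lists (67.86 and 75.33). At MRPS14 the scores were 77.6 and 255.22, and at NFATC3 92.03 and 394.68. Of the others near both lists, RNU6-414P in PATJ (58.23 and 152.3), RNU6-989P in CALCRL-AS1 (58.78 and 81.61), RNU6-921P, and RNU6-1255P in ASAP1 (86.53 and 103.32) had T(C/G) runs of 36 to 90 bp in their peaks.

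SMAR1 (BANP) is also known to bind a palindromic CGCG element, TCTCGCGAGA, found in promoters of CpG islands. This element was searched for after the promoter peaks had been seen. It is the same on both strands, and 0.552% of 20098 protein-coding promoters (250 bp before to 50 bp after the start) hold it. It was present in both peaks at 5 of the 15 copies, RNU6-1043P (SRCAP), RNU6-159P, and the Y RNA copies at WDR77, TGOLN2 and GPBP1. Of all peaks near U6 copies, 2 of 17 in HCT116 p53+/+ and 2 of 37 in HCT116 p53-/- held it. Near Y RNA copies 3 of 18 and 3 of 24 did. Over the whole lists, 1.63% (HCT116 p53+/+) and 1.54% (HCT116 p53-/-) held it, and within 1 kb of a coding start 18.6% and 14.3%. Its share among all peaks that overlap between the lists was not computed. The elements are shown with 20 bases on each side, from the plus strand.
RNU6-1043P, SRCAP promoter (chr16:30709441-30709490): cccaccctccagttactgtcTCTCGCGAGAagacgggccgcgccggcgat
RNU6-159P, intron of GSG1L (chr16:27879215-27879264): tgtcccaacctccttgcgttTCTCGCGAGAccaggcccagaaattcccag
Y_RNA, WDR77 promoter (chr1:111991898-111991947): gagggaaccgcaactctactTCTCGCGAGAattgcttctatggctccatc
Y_RNA, WDR77 promoter (chr1:111992044-111992093): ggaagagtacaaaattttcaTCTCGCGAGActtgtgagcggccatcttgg
Y_RNA, TGOLN2 promoter (chr2:85555098-85555147): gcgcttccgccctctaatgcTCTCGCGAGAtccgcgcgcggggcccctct
Y_RNA, GPBP1 promoter (chr5:56469843-56469892): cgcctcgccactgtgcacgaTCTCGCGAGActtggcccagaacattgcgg

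RNU6-159P stands apart from the other 4, since its peaks were centred 195845 and 195786 bp from the nearest coding start. It is on chromosome 16 from 27874572 to 27874677 in an intron of GSG1L, with the peaks 4513 and 4572 bp downstream (scores 95 and 521.72). Of the peaks near copies that were within 1 kb of a coding start, 0 of 3 and 0 of 5 near U6 copies and 0 of 5 and 0 of 7 near Y RNA copies held a T(C/G) run of 12 bp. Over all such peaks 15.1% and 14.3% held one, and the intervals of the small groups, with upper limits from 35.4% to 56.1%, held these shares.

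T(C/G) runs of at least 12 bp, uninterrupted and on either strand, were found in 10 of 17 HCT116 p53+/+ peaks near U6 copies (58.8%, 36.0 to 78.4) and in 7 of 18 near Y RNA copies (38.9%, 20.3 to 61.4). All peaks of that list held one in 61.2%. In HCT116 p53-/- they were found in 22 of 37 peaks near U6 copies (59.5%, 43.5 to 73.7) and 13 of 24 near Y RNA copies (54.2%, 35.1 to 72.1), and in 75.9% of all peaks. Both HCT116 p53-/- intervals lay below the share of the list. When the peaks within 1 kb of a coding start were left out, the shares near U6 copies were 71.4% and 68.8% and those near Y RNA copies 53.8% and 76.5%, where the lists had 64.8% and 82.1%. Without those peaks, the interval near Y RNA copies in HCT116 p53-/- (52.7 to 90.4) held the share of the list, and that near U6 copies (51.4 to 82.0) still ended just below it. Of protein-coding promoters, 2.68% hold such a run.

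**Figure D4:**
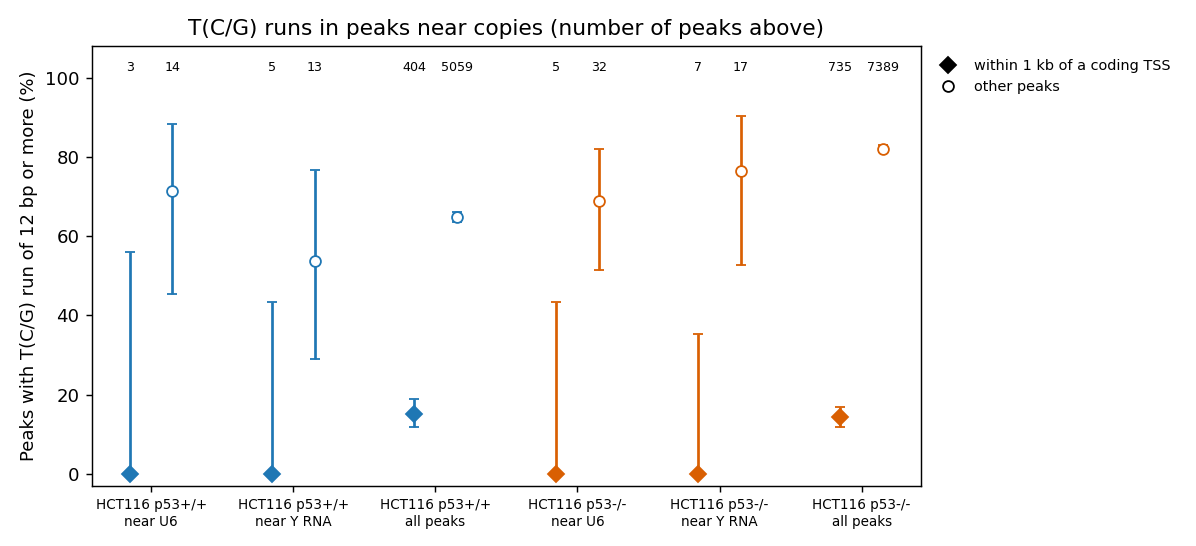
Share of peaks with a T(C/G) run of at least 12 bp (y axis, percent, with 95% Wilson intervals) near U6 copies, near Y RNA copies and over all peaks, for peaks within 1 kb of a protein-coding start (diamonds) and other peaks (circles). The number of peaks stands above each point. The 3, 5, 5 and 7 promoter peaks near copies are all at 0%, and the other peaks near copies lie between 53.8% and 76.5%.

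The central 31 bases had more than 1 match in the assembly for 8 of 17 and 16 of 37 peaks near U6 copies (47.1% and 43.2%) and for 5 of 18 and 11 of 24 near Y RNA copies (27.8% and 45.8%). In the whole lists this held for 48.3% and 53.5%. The most frequent had 183643 matches, among others near RNU6-920P, RNU6-737P and RNU6-989P, or 171118, among others near RNU6-419P, RNU6-103P, the Y_RNA copies in WDR7 and WWC3 and, in HCT116 p53-/-, RNU6-989P and the copy on chromosome 21 that was near both lists. A read that lies wholly within such a repeat cannot be placed by sequence alone, while one that reaches past it may be. Only the central 31 bases were counted, and the part of such reads in these peaks was not tested.

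The paper took U6 and Y RNA from genes with both a T(C/G) repeat and a p53 consensus upstream. It scanned the HCT116 p53+/+ peaks for them. Its supplement shows their peaks in HCT116 p53-/- alone. By PCR of precipitated chromatin, it reports p53 at both genes and reduced SMAR1 in HCT116 p53+/+, and SMAR1 enrichment in HCT116 p53-/-. In HCT116 p53-/-, both transcripts fell when SMAR1 was overexpressed and rose when it was knocked down. In HCT116 p53+/+, U6 rose under either treatment, and Y RNA under overexpression alone. Among the members, 3 had a peak within 5 kb upstream that held a T(C/G) run of at least 12 bp and, with 50 bp on each side, the 10 bp p53 consensus. All 3 were in HCT116 p53-/-, where 2 of 15 peaks upstream of U6 copies and 1 of 9 upstream of Y RNA copies held both. In HCT116 p53+/+, the list the paper scanned, 0 of 11 and 0 of 9 did. The share with both features among all peaks was not computed, so these counts have no background. RNU6-260P, on chromosome 5 from 157236106 to 157236212 in an intron of CLINT1, which encodes a clathrin interactor, had the peak 2115 bp upstream (score 59.03), and the peak is in CLINT1 as well. RNU6-1054P, on chromosome 4 from 119527605 to 119527708 in an exon of a lncRNA gene, had it 1257 bp upstream (score 63.97). The Y_RNA copy on chromosome 7 from 89881237 to 89881334, in an intron of CFAP69, a gene of the sperm flagellum, had it 1716 bp upstream (score 100.19). The peaks are shown with the longest run in capitals.
RNU6-260P peak (chr5:157233963-157234019, plus strand): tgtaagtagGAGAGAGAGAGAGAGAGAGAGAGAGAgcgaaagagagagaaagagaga
RNU6-1054P peak (chr4:119526304-119526392, plus strand): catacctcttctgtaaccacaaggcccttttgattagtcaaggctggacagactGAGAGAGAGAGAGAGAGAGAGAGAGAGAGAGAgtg
Y_RNA in CFAP69 peak (chr7:89879493-89879550, plus strand): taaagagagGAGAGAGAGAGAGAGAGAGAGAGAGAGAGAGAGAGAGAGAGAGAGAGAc

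On either side and with or without a repeat, the p53 consensus was present in 2 of 17 and 3 of 37 peaks near U6 copies and in 0 of 18 and 3 of 24 near Y RNA copies. The shares were 11.8% (3.29 to 34.3), 8.11% (2.8 to 21.3), 0% (up to 17.6) and 12.5% (4.34 to 31). In all peaks they were 2.67% and 3.18%, and in coding promoters 6.08%. The sequences searched differ in length, and the shares were not adjusted for it. Median peak length was 60 and 61 bp over the lists, 69 and 89 bp near U6 copies and 80.5 and 96 bp near Y RNA copies. Promoters were searched from 250 bp before to 50 bp after the start. The peaks with the consensus at RNU6-736P were 398 and 614 bp long, and those beside MRPS14 and PHB1 421 and 473 bp. The HCT116 p53+/+ peaks with it were those at RNU6-736P (COPB2) and RNU6-130P. In HCT116 p53-/-, beside the 3 copies with repeats, they were those at RNU6-736P again and at the Y_RNA copies beside MRPS14 and PHB1.

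Identity to the functional genes was compared between the members and all copies. The median identity to RNU6-1 was 79.4% over the 43 U6 members (53.3 to 100) and 82.2% over all 1324 copies. Identity of at least 90% was found in 4 members (9.3%) and in 121 copies (9.14%). The highest were RNU6-1 itself, RNU6-737P (92.5%) and RNU6-921P (91.6%). For Y RNA the median identity to the nearest of RNY1, RNY3, RNY4 and RNY5 was 87.7% over the 34 members (69.6 to 93.1) and 86.5% over all 802. At least 90% was reached by 9 members (26.5%) and by 142 copies (17.7%). The highest were the copies in MRPS14 and WWC3 (93.1% each) and in WDR7 (92.2%). RNY3 was the nearest functional gene for 20 members (58.8%) and 390 of all copies (48.6%), and RNY1 for 10 (29.4%) and 320 (39.9%). No member was nearest to RNY5, which is the nearest for 11 copies in all.

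The letters TATA between 35 and 18 bp upstream of the copy were found at 5 of 43 U6 members (11.6%, 5.07 to 24.5) and at 10.3% of all U6 copies. For Y RNA they were found at 5 of 34 members (14.7%, 6.45 to 30.1) and at 7.86% of all copies. RNU6-1 was among the 5 U6 members. A run of at least 8 A in the 30 bp after the copy, as left by retrotransposition, stood after 5 U6 members (11.6%) and 8 Y RNA members (23.5%), where all copies had 11.0% and 23.6%. The intervals of the members held the share of all copies in both features.

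In the annotation, 22 U6 members (51.2%) were in introns of protein-coding genes, 5 in introns and 2 in exons of lncRNA genes, and 14 (32.6%) between genes. All U6 copies had 47.3% in introns of protein-coding genes and 36.6% between genes. Of the Y RNA members, 11 (32.4%, 19.1 to 49.2) were in introns of protein-coding genes, 6 in introns of lncRNA genes and 17 (50%, 34.1 to 65.9) between genes, where all Y RNA copies had 52.2% and 33.4%. Both intervals left out the share of all copies. For the 18 Y RNA members of HCT116 p53+/+ taken alone both shares were 38.9% (20.3 to 61.4), and the interval held those of all copies. For the 23 of HCT116 p53-/- they were 30.4% (15.6 to 50.9) and 60.9% (40.8 to 77.8). Both of these intervals left out the share of all copies. No member was in an exon of a protein-coding gene.

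Genes that make or bind these RNAs were looked at as listed sets. Of 11 genes for SNAPc, TFIIIB and the activators of these promoters, 1 had a peak within 5 kb of the gene in each list, POU2F1, which encodes the octamer-binding factor Oct-1, in HCT116 p53+/+ (score 62.66) and BRF1, a TFIIIB subunit, in HCT116 p53-/- (140.78). Both peaks were inside the gene, 43505 and 70005 bp downstream of its start. Of 13 RNA polymerase III subunits, 1 had one in HCT116 p53+/+ (POLR1D, 88.35) and 3 in HCT116 p53-/- (POLR3E, 98.83, POLR3G, 56.53, and POLR1C, 408.03). The peaks of POLR1D, POLR3G and POLR1C were inside the gene, 106142, 2830 and 7370 bp downstream of its start. That of POLR3E was 475 bp past its end. Counted from the annotated start only, 0 and 1 of the 13 had a peak within 5 kb. The background over all protein-coding genes was 12.7% and 18.1% by the gene and 3.88% and 6.71% by the start.

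Of 17 genes for proteins that bind or modify U6, 5 had a peak in HCT116 p53+/+ (29.4%) and 8 in HCT116 p53-/- (47.1%). Counted from the annotated start only, there were 3 and 5 with a peak within 5 kb, where the background was 3.88% and 6.71% of protein-coding genes. LSM3, of the ring of LSm proteins on the 3′ end of U6, had the highest scores, 384.01 and 1034.66, with the peaks centred 12 and 45 bp downstream of its start. METTL16, the methyltransferase of U6, had 87.53 and 525.06, centred 94 and 24 bp upstream. PRPF4, of the U4/U6 particle, had 50.95 and 364.89, centred 53 bp downstream and 125 bp upstream. LSM8 (263.32, 72 bp upstream) and PRPF31 (84.47, 273 bp downstream) had a start peak in HCT116 p53-/- alone.

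The others had peaks away from the start. USB1, which trims U6, had peaks about 21 kb downstream of its start (50.28 and 91.12 in HCT116 p53+/+, 57.03 in HCT116 p53-/-). PRPF31 had further peaks past its end (51.4 and 75.33). TUT1, which adds uridines to U6, had an HCT116 p53-/- peak 843 bp past its end (81.28), and SART3, which recycles U6, had one in that list inside the gene (74.76).

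Of 9 genes for proteins that bind Y RNA, 1 had a peak in HCT116 p53+/+ (11.1%) and 3 in HCT116 p53-/- (33.3%), where the background was 12.7% and 18.1%. Counted from the annotated start only, there were 1 and 2 with a peak within 5 kb, where the background was 3.88% and 6.71%. PUF60 had one in both, centred 1342 and 1324 bp downstream of its start (122.46 and 601.62), HNRNPK one at its start in HCT116 p53-/- (349.84), and NCL, encoding nucleolin, one inside the gene in HCT116 p53-/- (66.22). RO60 and SSB, encoding the Ro60 and La proteins, had none within 5 kb in either list. As each list has a small number of genes and 1 library per line, these counts were given no test.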

How the data were processed

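Peaks were called on 1 anti-SMAR1 ChIP library each of HCT116 p53+/+ and HCT116 p53-/- cells. The authors trimmed single-end reads with Cutadapt 1.2.1, aligned them to hg19 with Bowtie2 2.2.1, called peaks with MACS 1.4.2 and filtered them on fold enrichment, by a limit not given in the sources used here, nor is the use of IgG as the control. The deposited score is that of MACS and is not normalized for depth.

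Positions were compared with GRCh37, which is hg19, and GENCODE release 44 mapped to it. Peaks were converted to 1-based coordinates. The expected number of peaks was the number on each chromosome times the share of its assembled bases within 5 kb of a copy, with no resampling. Copies were aligned globally (match 1, mismatch −1), and identity is over the functional gene. Intervals are 95% Wilson or exact Poisson.

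The members and lists were chosen with earlier results of these data known. Copies named in the text are the functional genes, those touched by a peak, near both lists, nearest to a peak, with the highest scores or identity, or next to the limit. In the gene lists every gene with a peak is named. The CGCG element and the other members named (at CACYBP and PHB1, and those with common repeats or a p53 consensus) were chosen after their values were seen. Some sequences are not reported here. Functions were tested on simulated data. The tools were Biopython 1.88, pysam 0.24.0, scipy 1.17.1, matplotlib 3.10.9, pandas 2.3.3 and numpy 2.4.6, under Python 3.11.15.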

Additional observations from a re-analysis of the deposited data

How the results depend on the processing

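Of 70 alternatives over 18 results, 50 stayed within 1.5 times the count or within the interval of the value, among them chromosome Y, the start of the copy, the edge of the peak, the density within 1 Mb and the flanks of 50 bp. With a limit of 1 kb, 2 and 6 U6 and 2 and 3 Y RNA copies were near a peak in HCT116 p53+/+ and HCT116 p53-/-, and with 10 kb 43 and 68 and 34 and 44. With peaks at or above the median score, 9 and 17 U6 copies were near, and 15 Y RNA copies in HCT116 p53-/-. At 1 kb the ratio to the expected number was 0.371 for U6 in HCT116 p53+/+ and 0.606 and 0.614 for Y RNA, and 100% of the 2 peaks were upstream in HCT116 p53+/+ for each family. With runs of at least 6 bp, the T(C/G) share was 66.7% and 83.3% near Y RNA copies and 75.7% near U6 copies in HCT116 p53-/-. Over all peaks it rose as well, to 76.3% in HCT116 p53+/+ and 88.6% in HCT116 p53-/-. Without peaks within 1 kb of a coding start, added after seeing the data, the share with runs of at least 12 bp was 76.5% near Y RNA copies in HCT116 p53-/-. The list without them had 82.1%. A smaller limit or fewer peaks leaves fewer copies by construction. No paired analysis was possible because each cell line has 1 library and the values come from no test. The number of peaks near copies limits every share.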

Other observations

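Other functional genes of RNA polymerase III were looked at after the values of the members had been seen. RN7SK, the functional 7SK gene on chromosome 6, had an HCT116 p53-/- peak from 52861914 to 52861984 (score 60.16), 1.2 kb past its end, and in HCT116 p53+/+ the nearest was 289 kb away. The nearest peaks to RMRP, an RNA of the mitochondrial RNA processing ribonuclease, were 295 and 197 kb away in HCT116 p53+/+ and HCT116 p53-/-. For RNU6ATAC, the U6 of the minor spliceosome, they were 60.4 and 89.3 kb away, and for the vault RNA gene VTRNA1-1 204 and 106 kb. For the 7SL gene RN7SL2 they were 222 and 203 kb away. None of the 8 U6 copies and the 1 Y RNA copy on chromosome Y had a peak within 5 kb in either list.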
